A study of Mus musculus with 12 samples.

Results

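The effect of monosodium glutamate (MSG) on the liver of mice that already drank aspartame (ASP) was read by setting the 3 arrays of the ASP + MSG + TFA diet against the 3 arrays of the ASP + TFA diet, 6 of the 12 arrays of the study. All mice ate the same trans fat (TFA) diet with 20% (w/w) partially hydrogenated vegetable shortening. Of the diet as a whole, 8.68% by weight was trans fatty acids. Both of the compared groups drank aspartame, a sweetener, at 0.25 g/L. MSG, a flavour enhancer, was added to the water of the ASP + MSG + TFA group at 0.75 g/L. The other 6 arrays held the TFA diet with plain water and the MSG + TFA diet with MSG at the same concentration. Each Affymetrix Mouse Gene 1.0 ST array carried liver RNA of 5 mice mixed as 1 pool, and the 15 mice of a diet, all C57Bl/6J males at 20 weeks of age, formed 3 pools. The mothers were placed on the diets before mating, the offspring stayed on them after weaning, and the tissue was taken after an overnight fast. How a signal divides among the 5 mice of a pool cannot be read from these arrays. Values below are log2 intensities, averaged over the probe sets of a gene, of 20422 genes, and differences are ASP + MSG + TFA minus ASP + TFA on that scale.

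The liver of a fasting mouse burns fatty acids under the receptor PPARalpha and makes glucose for other organs. Hepatocytes also secrete most plasma proteins, among them the acute phase proteins, whose genes respond to interleukin-6 through the transcription factor STAT3. Immediate early and stress-inducible genes, such as the growth regulator Myc, are normally kept low in resting liver and can be switched on within minutes by hormones, growth factors, injury or handling. Because whole tissue was measured, fewer cells of a type and less RNA per cell cannot be told apart.

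Adding MSG on top of aspartame lowered the transcripts of 5 genes and raised none at an adjusted p under 0.05 (limma over the 12 arrays with Benjamini-Hochberg adjustment), which is 0.0245% of the genes tested. Of these, 4 (Myc, Phlda1, Gadd45g and Foxq1) belong to a list of 50 immediate early and stress-inducible genes, and the fifth, Gm8785, is a gene model with no known role. Without adjustment, 1033 genes (5.06%) were lower and 685 (3.35%) were higher at p under 0.05. The 3 pools of one diet lay wholly below those of the other for 1353 genes (6.63%) and wholly above for 881 (4.31%). The median difference over all genes was -0.02. No single probe set of the 212138 tested passed an adjusted p under 0.05 with a 1.4-fold change in limma, although 17584 had an unadjusted p under 0.05, and the smallest adjusted p, 0.0644, belonged to a probe set of Myc.

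Myc, which encodes a transcription factor that drives cell growth and division, had the smallest p of all genes. In pools 1 to 3 its level was 9.25, 8.59 and 8.67 with aspartame and 6.56, 6.47 and 6.79 with both additives. The means were 8.84 ± 0.36 and 6.61 ± 0.17 (SD, n = 3 pools). Every ASP + MSG + TFA pool was below every pool of the other 3 diets, since the TFA pools lay between 8.33 and 8.64 and the MSG + TFA pools between 7.99 and 8.68. Myc fell by 2.23 ± 0.19 (SE) on the log2 scale, with a 95% interval from -2.64 to -1.82 and an adjusted p of 2.74e-04 in limma. Each of its 3 probe sets was lower, with differences of -2.56, -2.25 and -1.88. Without aspartame, MSG changed Myc by -0.21 (MSG + TFA against TFA, adjusted p = 0.966 in limma), and the interaction, the MSG effect with aspartame minus the MSG effect without, was -2.03 (adjusted p = 0.0151 in limma). That call was lost without TFA pool 1 or ASP + MSG + TFA pool 2 (adjusted p = 0.0543 and 0.0568 in limma) and without the 3 pools with most pancreatic transcripts, described further on (adjusted p = 0.115). The interaction passed an adjusted p under 0.05 for 14 genes (0.0686%). Against the TFA diet itself, Myc was lower by 1.85 with both additives and higher by 0.38 with aspartame alone, with adjusted p of 0.00283 and 0.53 in limma. These contrasts share arrays with the first.

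Phlda1, a growth factor-inducible gene linked to apoptosis, measured 9.56, 9.44 and 9.28 in the ASP + TFA pools and 7.97, 8.15 and 8.51 in the ASP + MSG + TFA pools. The groups did not overlap, and the gene fell by 1.21 ± 0.17 (adjusted p = 0.0367 in limma). Its TFA pools lay between 9.06 and 9.44 and its MSG + TFA pools between 8.89 and 9.59, so the ASP + MSG + TFA pools were again the lowest of the 12. All 3 probe sets were lower, by 1.68 for the one with the greatest difference and by 0.89 for the one with the least. For Phlda1 the interaction did not pass an adjusted p under 0.05 in limma, with all pools or in any of 14 alternatives, where it ranged from -1.25 to -0.875.

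Foxq1, a forkhead transcription factor, measured 7.91, 7.75 and 7.66 in the ASP + TFA pools and 6.83, 6.88 and 7.13 in the ASP + MSG + TFA pools. It fell by 0.82 ± 0.10 (adjusted p = 0.0107 in limma), and these 3 pools were below the other 9. Its 2 probe sets were unequal, with differences of -1.39 and -0.26. MSG without aspartame gave -0.07. The interaction did not pass an adjusted p under 0.05 in limma, with all pools or in any of 14 alternatives, where it ranged from -0.84 to -0.63.

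Gadd45g, a growth arrest and DNA damage-inducible gene of the stress kinase pathway, measured 8.47, 8.64 and 8.37 in the ASP + TFA pools against 7.54, 7.51 and 7.67 in the ASP + MSG + TFA pools. It fell by 0.92 ± 0.14 (adjusted p = 0.0415 in limma). For this gene the MSG + TFA pools were also spread low, at 7.55, 7.96 and 8.17 against 8.34 to 8.63 in the TFA pools, a difference of -0.58 that did not pass (adjusted p = 0.306 in limma), and the interaction was -0.34 (adjusted p = 0.755 in limma). Of its 4 probe sets, 3, between -1.36 and -0.77, showed the groups apart, and the remaining one differed by -0.19. Among the 5 genes it is the one with a promoter entry in the RefSeq table used here, and its 250 bases before the start (GRCm38.p6, chr13:51846425-51846674, plus strand) are shown because they hold, in capitals, a CACGTG match, the E-box that Myc and Max dimers can bind, and a TATAAA match, the TATA box.
Gadd45g: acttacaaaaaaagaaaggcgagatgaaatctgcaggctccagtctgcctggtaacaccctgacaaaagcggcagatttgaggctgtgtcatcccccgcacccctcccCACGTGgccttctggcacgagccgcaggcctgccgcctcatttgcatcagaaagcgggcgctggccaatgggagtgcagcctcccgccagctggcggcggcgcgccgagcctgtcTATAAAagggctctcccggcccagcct
The first base of the E-box lies 142 bases, and that of the TATA box 27 bases, before the start. Searched on both strands, CACGTG was found in 6.02% and TATAAA in 12.4% of the 32851 promoters of the table over the same length. A match describes these letters and shows no binding.

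Gm8785 followed another course, and both of its probe sets read below the array medians of 6.91 to 6.96 in every pool. Its level was 6.16, 6.15 and 6.31 in the ASP + TFA pools, 5.63, 5.66 and 5.69 in the ASP + MSG + TFA pools and 5.65 to 5.67 in the TFA pools. In the MSG + TFA pools its first probe set read 5.40, 5.45 and 5.59, against 5.49, 5.29 and 5.41 in the TFA pools. The second read 6.37, 6.38 and 6.08 with MSG alone, above the 5.84, 6.01 and 5.90 of the TFA pools. Gm8785 was higher by 0.55 with aspartame alone than on TFA (adjusted p = 0.00955 in limma). It fell by 0.54 ± 0.07 with MSG added (adjusted p = 0.0281 in limma), so that both additives together stood at the TFA level. The interaction was -0.76 (adjusted p = 0.0151 in limma), a call that was lost in 6 of 14 alternatives, the replicate block among them (adjusted p = 0.0533 in limma).

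**Figure D1:**
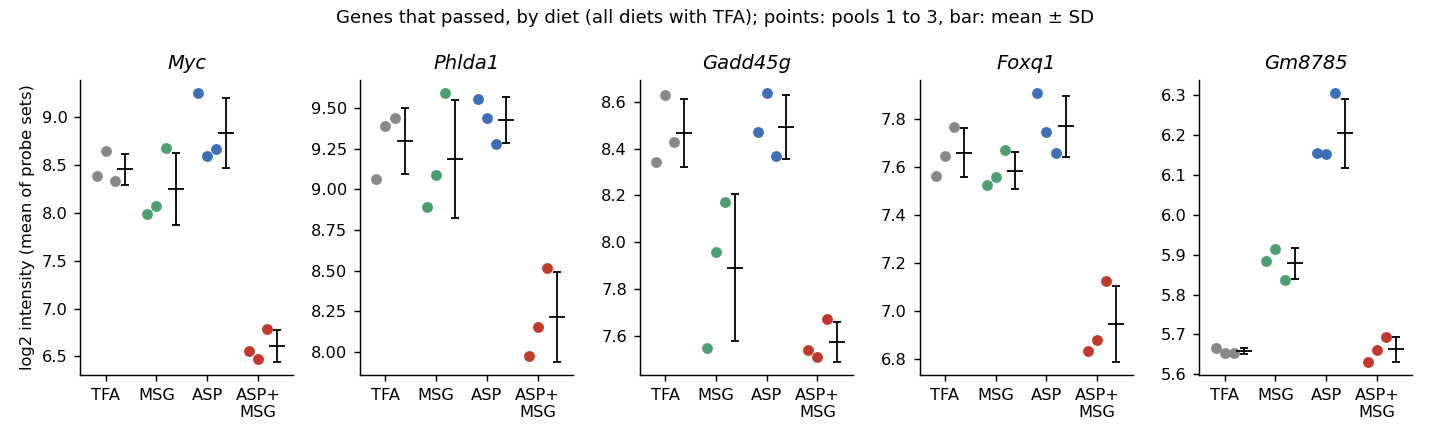
Log2 intensity (y axis) of the 5 genes that passed, in each pool of the 4 diets (x axis, all with TFA), with the mean and SD as a bar beside the points. For Myc the ASP + MSG + TFA pools lie between 6.47 and 6.79, below all other pools, whereas for Gm8785 they return to the TFA level.

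Myc passed with each of the 12 pools left out in turn. The other 4 genes lost their call without ASP + TFA pool 1 or 2 or ASP + MSG + TFA pool 1 or 2, with adjusted p from 0.0731 to 0.245 in limma, and all but Foxq1 did so without TFA pool 1 or 3 or MSG + TFA pool 2. Gadd45g also lost its call without ASP + MSG + TFA pool 3 (adjusted p = 0.0629 in limma). The list that holds 4 of the genes was put together with results of these arrays known and is not independent evidence of their direction.

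Most immediate early genes did not follow Myc. Of the 50 measured, 4 fell and none rose. At an unadjusted p under 0.05, 11 were lower and 2 higher, and 14 lay wholly below and 2 wholly above the ASP + TFA pools. The shares over all genes that these and the later list counts stand beside are 5.06% and 3.35% by unadjusted p and 6.63% and 4.31% by pools that do not overlap. The list median was -0.04, beside -0.02 over all genes. The first immediate early genes of the classical response, Fos and Egr1, which encode partners of the early transcription programme, differed by -0.11 ± 0.11 and -0.05 ± 0.16. Jun, the partner of Fos in the AP-1 factor, had a difference of 0.37 ± 0.17, with ASP + MSG + TFA pool 3 at 8.83 inside the range of the ASP + TFA pools. Cyr61, a matricellular protein gene, was higher in every ASP + MSG + TFA pool (8.17, 7.89 and 8.00 against 7.23, 7.85 and 7.68), a difference of 0.43 ± 0.13 that did not pass (adjusted p = 0.405 in limma). Among the lower members that did not pass, the stress kinase gene Plk3 differed by -0.54 ± 0.15, the cell cycle inhibitor Cdkn1a by -0.62 ± 0.24, the AP-1 member Fosl2 by -0.36 ± 0.13 and the cytokine signalling inhibitor Socs3 by -0.24 ± 0.10 (adjusted p = 0.331, 0.502, 0.447 and 0.561 in limma). Cdkn1a was at 7.40, 7.20 and 7.35 in the ASP + TFA pools and 6.65, 6.97 and 6.47 in the ASP + MSG + TFA pools, while the TFA pools lay at 6.40 or lower.

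Genes around Myc moved little. Of the 14 measured members of the Myc and MAX network, Myc alone passed, and no other member had an unadjusted p under 0.05. Max, the obligate partner of Myc, differed by -0.03 ± 0.10, and its antagonists Mxd1 and Mnt by 0.04 ± 0.12 and -0.02 ± 0.09. Of 30 Myc targets in ribosome making and nucleotide synthesis, 22 had a difference below 0 and 8 above. Of them, 3 were lower at an unadjusted p under 0.05, none was higher, none passed, and the list median was -0.07. The lowest of these was Srm, spermidine synthase of the polyamine pathway, at 9.12, 8.90 and 8.85 in the ASP + TFA pools and 8.45, 8.68 and 8.63 in the ASP + MSG + TFA pools. Its groups did not overlap, and its difference was -0.37 ± 0.10 (adjusted p = 0.298 in limma). The nucleolar protein gene Nop56 and the nucleotide kinase gene Nme1 gave -0.20 ± 0.08 and -0.19 ± 0.09. Of 27 cell cycle and DNA replication genes, 1 was higher and none lower at that threshold, with a median of 0.04.

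Of the lower genes other than gene models and olfactory receptors, Alas1, the rate-limiting enzyme of heme synthesis and a target of the receptor CAR, had the smallest p of those that did not pass. It measured 11.95, 12.11 and 12.08 in the ASP + TFA pools and 11.33, 11.29 and 11.67 in the ASP + MSG + TFA pools, and all 10 of its probe sets had a difference below 0. The gene difference was -0.62 ± 0.10 (adjusted p = 0.0737 in limma). Steap4, a metalloreductase gene that responds to inflammatory signals, was at 10.79, 10.37 and 10.43 against 9.70, 9.86 and 9.91, a difference of -0.71 ± 0.14 (adjusted p = 0.149 in limma). Cyp7b1, which makes oxysterols and bile acids, was at 11.95, 11.66 and 11.37 against 10.92, 11.00 and 10.87, a difference of -0.73 ± 0.15 (adjusted p = 0.194 in limma). In all 3 genes the groups did not overlap.

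Of the genes that were higher, none passed. Ppih, a peptidyl-prolyl isomerase of the spliceosome read by a single probe set, also differed by the interaction test. It measured 5.61, 5.33 and 6.37 in the ASP + TFA pools, 6.94, 6.68 and 7.03 in the ASP + MSG + TFA pools, 5.54 to 5.95 in the MSG + TFA pools and 6.69 to 7.24 in the TFA pools. Each additive alone was thus below TFA and both together at the TFA level, with an interaction of 2.26 (adjusted p = 0.0151 in limma, lost in 3 of 14 alternatives with adjusted p up to 0.0543) and a difference in the main comparison of 1.11 ± 0.22 (adjusted p = 0.172 in limma). Id2, an inhibitor of basic helix-loop-helix factors, was at 11.61, 11.32 and 11.26 against 12.01, 11.78 and 12.03, a difference of 0.54 ± 0.11 (adjusted p = 0.205 in limma).

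Acute phase genes were the list with the lowest median, -0.35 over 25 measured genes. Of these, 23 had a difference below 0, and 15 were lower and 1 higher at an unadjusted p under 0.05, beside 5.06% and 3.35% of all genes. None passed the adjusted test, and 5 had all ASP + MSG + TFA pools below all ASP + TFA pools, beside 6.63% of all genes. The spread lay within the ASP + TFA group. Averaged over the list, ASP + TFA pools 1 to 3 stood at 11.18, 10.94 and 10.31, against 10.29, 10.40 and 10.12 with MSG added. The TFA pools were at 10.33 to 10.61 and the MSG + TFA pools at 10.31, 10.33 and 10.78.

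Saa2, serum amyloid A and a main acute phase protein of the mouse, measured 13.36, 13.12 and 8.68 in the ASP + TFA pools and 9.04, 10.09 and 7.32 in the ASP + MSG + TFA pools. ASP + TFA pools 1 and 2 were thus the highest of the 12 and pool 3 lay within the range of the ASP + MSG + TFA pools, so the difference of -2.91 had an SE of 1.19 (adjusted p = 0.544 in limma). Lcn2, lipocalin 2, which binds bacterial siderophores, was at 10.98, 10.88 and 7.55 against 7.62, 7.86 and 6.90, and Orm2, an orosomucoid, at 10.57, 10.99 and 8.26 against 8.20, 8.49 and 8.17. MSG + TFA pool 3 was also high for these genes, with 12.40 for Saa2, 10.35 for Lcn2 and 10.85 for Orm2, while the other MSG + TFA pools were at 8.40 and 8.83, 7.26 and 7.40, and 8.52 and 8.29. Near-identical family members, such as Saa1 and Saa2 or the Orm genes, may share probes, which was not tested.

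Haptoglobin (Hp), which binds free hemoglobin, was at 13.57, 13.34 and 12.90 against 12.74, 12.92 and 12.73, a difference of -0.47 ± 0.14 (adjusted p = 0.378 in limma). Lrg1, a leucine-rich glycoprotein of the acute phase that was not on the list, measured 12.92, 12.46 and 11.81 against 11.16, 11.71 and 11.32, with no overlap and means of 12.40 ± 0.56 and 11.40 ± 0.28 (SD, n = 3 pools, adjusted p = 0.276 in limma). Il6ra, the interleukin-6 receptor, and Stat3 differed by -0.13 ± 0.13 and -0.27 ± 0.16.

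The sequence that STAT3 binds in acute phase promoters follows the pattern TTCNNNGAA, and the promoters of the listed genes were searched for it on both strands. Over 250 bases it occurred in 7.02% of all promoters, counted by promoter entry, whereas a listed gene counted once if any of its entries held it. Of the 25 genes, 22 had an entry, and the pattern occurred within 250 bases before the start of 6 (Apcs, Fga, Fgb, Hamp, Itih4 and Socs3). The 4 with an unadjusted p under 0.05 in the comparison are shown with the pattern in capitals, from RefSeq on GRCm38.p6.
Fga (chr3:83025903-83026152, plus strand): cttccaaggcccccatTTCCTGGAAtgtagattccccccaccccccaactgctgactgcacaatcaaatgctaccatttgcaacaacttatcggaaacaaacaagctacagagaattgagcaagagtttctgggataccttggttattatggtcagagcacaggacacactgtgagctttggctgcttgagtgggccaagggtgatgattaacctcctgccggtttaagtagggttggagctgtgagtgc
Apcs (chr1:172895055-172895304, minus strand): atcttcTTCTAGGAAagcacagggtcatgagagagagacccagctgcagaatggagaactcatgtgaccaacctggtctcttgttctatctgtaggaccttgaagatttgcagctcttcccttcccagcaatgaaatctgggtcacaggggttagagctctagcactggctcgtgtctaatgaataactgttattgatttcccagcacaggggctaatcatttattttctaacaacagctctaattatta
Itih4 (chr14:30886226-30886475, plus strand): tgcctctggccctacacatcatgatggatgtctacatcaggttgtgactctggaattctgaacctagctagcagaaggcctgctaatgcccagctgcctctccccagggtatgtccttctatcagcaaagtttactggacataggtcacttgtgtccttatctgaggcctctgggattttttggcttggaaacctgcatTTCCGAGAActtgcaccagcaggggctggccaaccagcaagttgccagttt
Socs3 (chr11:117969367-117969616, minus strand): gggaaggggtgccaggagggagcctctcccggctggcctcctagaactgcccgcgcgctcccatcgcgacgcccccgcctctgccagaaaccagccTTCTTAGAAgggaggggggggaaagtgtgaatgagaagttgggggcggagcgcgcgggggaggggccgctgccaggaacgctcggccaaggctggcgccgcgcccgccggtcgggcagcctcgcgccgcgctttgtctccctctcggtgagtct
The first base of the pattern lies 234, 244, 51 and 154 bases before the start. Fga encodes the alpha chain of fibrinogen and was at 12.85, 12.54 and 12.51 against 12.11, 12.42 and 12.27 (difference -0.36 ± 0.11). Apcs, serum amyloid P, was at 10.24, 9.76 and 8.30 against 8.45, 8.53 and 8.72 (difference -0.87 ± 0.33), and ASP + TFA pool 3 was the lowest of all 6. Itih4, a chain of the inter-alpha-trypsin inhibitor, differed by -0.37 ± 0.16. Most listed genes, among them Saa2, Lcn2 and Orm2, had an entry without the pattern.

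**Figure D2:**
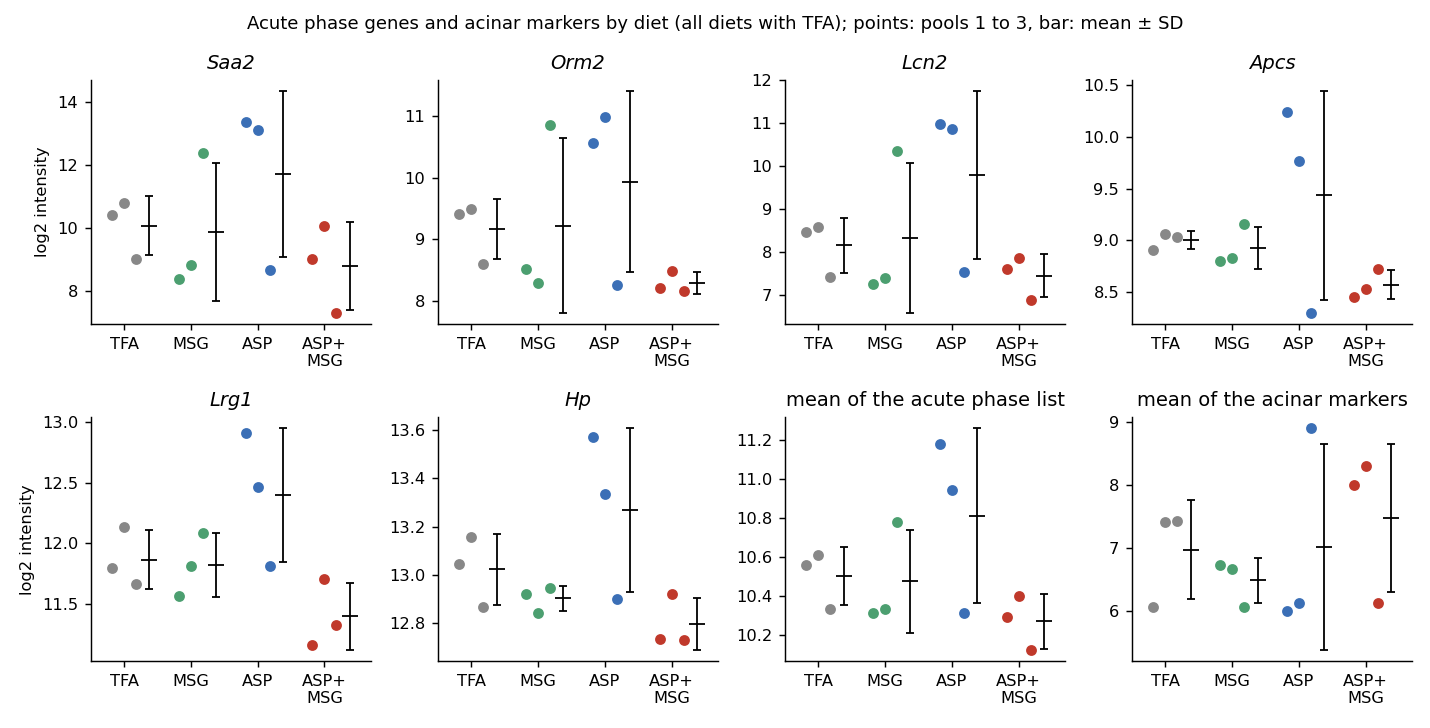
Log2 intensity (y axis) of 6 acute phase genes, of the mean of the acute phase list and of the mean of the pancreatic acinar markers in each pool of the 4 diets (x axis, all with TFA), with the mean and SD as a bar. ASP + TFA pools 1 and 2 lie above the ASP + MSG + TFA pools for all 6 genes, pool 3 lies above all of them for Lrg1 and not for the other 5, and pool 3 has the highest acinar mean, 8.90.

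The single pool that moved the result most was ASP + TFA pool 3. Without it 45 genes passed, 28 lower (0.137% of genes) and 17 higher (0.0832%), and they held all 5 genes named above. At an unadjusted p under 0.05, 1661 genes (8.13%) were then lower and 1397 (6.84%) higher. All 45 had the same sign with every pool included, and 42 had an unadjusted p under 0.05 there. The fits share all arrays but that pool, so this agreement is not independent support for the 45. Leaving out any other pool gave between 1 and 9 genes. The 28 lower genes held several secreted by hepatocytes, with Apcs at -1.43 (adjusted p = 0.00274), Lrg1 at -1.29 (0.0293) and the complement genes C8b at -0.76 (0.0194) and C2 at -0.65 (0.0348). They also held Cyp7b1 at -0.88 (0.0384), the macrophage-secreted Cd5l at -0.51 (0.0293), Pim1, a kinase gene downstream of cytokine receptors, at -0.68 (0.0348), and Hp at -0.66 (0.036). Among the 17 higher were Ppih at 1.41 (0.00978), the cytochrome gene Cyp2c38 at 1.05 (0.00978), the lipid droplet gene Cidec at 0.84 (0.0348) and Star, a mitochondrial cholesterol transporter, at 0.53 (0.0348). All p in brackets are adjusted p of limma over the 11 remaining arrays, and the 45 genes were picked by their values without that pool. Pool 3 lay within the range of the ASP + MSG + TFA pools for 13 of the 45 and on the side of the other ASP + TFA pools for 24.

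**Figure D3:**
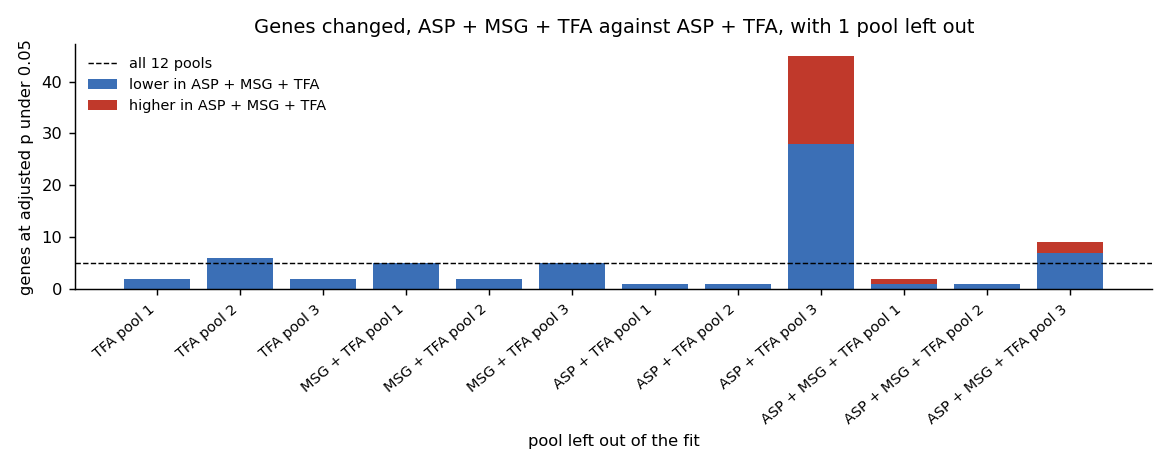
Number of genes at an adjusted p under 0.05 (y axis), lower (blue) and higher (red) in ASP + MSG + TFA than in ASP + TFA, with the pool on the x axis left out of the fit. The dashed line marks the 5 genes found with all pools, and without ASP + TFA pool 3 the number was 45.

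Transcripts of another tissue marked the same pool. The mean of 12 pancreatic acinar markers, genes of digestive enzymes such as Pnlip and Ctrb1, was 6.01, 6.13 and 8.90 in the ASP + TFA pools and 8.00, 8.30 and 6.13 in the ASP + MSG + TFA pools, with 6.07 to 7.43 in the TFA pools. None of the 12 separated the groups or passed, and 11 had a difference above 0. Kupffer cell and macrophage markers (8 genes) were at a mean of 8.29 in ASP + TFA pool 3, of 8.30 and 8.28 in the first 2 ASP + MSG + TFA pools, and between 8.49 and 8.54 in the other 3 of these 6 pools, so these markers were lower in the 3 pools with the most acinar transcripts. Cholesterol synthesis genes split the same way, with a list mean of 9.63, 9.39 and 8.99 in the ASP + TFA pools and 9.07, 9.16 and 9.55 in the ASP + MSG + TFA pools, and none of the 20 measured had an unadjusted p under 0.05. Without ASP + TFA pool 3, 8 of them were lower and none higher at that threshold, beside 8.13% and 6.84% of all genes. Their median was then -0.27. The 10 hepatocyte markers averaged 12.54 to 12.74 in the 6 pools, with a median difference of -0.03 and 2 of them lower at an unadjusted p under 0.05. With ASP + TFA pool 3 and ASP + MSG + TFA pools 1 and 2 left out, which leaves 1 ASP + MSG + TFA pool that is assumed to vary like the other groups, 14 genes passed, 5 lower and 9 higher. Myc then differed by -2.13 (adjusted p = 0.0329 in limma), and Phlda1, Gadd45g, Foxq1 and Gm8785 differed by -0.98, -0.88, -0.70 and -0.46 (adjusted p = 0.196, 0.184, 0.103 and 0.168 in limma). With the acinar mean as a covariate Myc differed by -2.18 (adjusted p = 0.000635 in limma), and Phlda1 and Gadd45g did not pass (adjusted p = 0.0601 and 0.0721 in limma). For the acute phase and cholesterol genes the part of these transcripts in the pattern was not tested.

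No gene of fatty acid oxidation or synthesis passed. Of 28 PPARalpha targets, 21 had a difference above 0 and 7 below, and at an unadjusted p under 0.05 there were 7 higher and 1 lower, beside 3.35% and 5.06% of all genes. The median was 0.09, and it ranged from 0.01 to 0.18 with 1 pool left out. Without ASP + TFA pool 3 the unadjusted counts were 12 and 1, beside 6.84% and 8.13% of all genes. Pdk4, the kinase that shuts down glucose oxidation in fasting, was at 8.20, 8.65 and 8.20 against 8.84, 8.99 and 8.98, and Acot4, a peroxisomal thioesterase, at 8.20, 8.58 and 8.50 against 8.98, 9.00 and 8.88. The groups did not overlap for either, and the differences were 0.59 ± 0.14 and 0.52 ± 0.12 (adjusted p = 0.276 for each in limma). Acot3 and Acot1, of the same thioesterase family, gave 0.62 ± 0.23 and 0.45 ± 0.17. Creb3l3, a liver transcription factor gene that partners with PPARalpha, was the 1 target lower at an unadjusted p under 0.05, at -0.28 ± 0.08. Of the receptors and coregulators (17 genes), 1 was lower, Rxra at -0.20 ± 0.09, and none higher at that threshold. Ppara and Ppargc1a, named here for their place in the study and not for their values, differed by 0.04 ± 0.10 and 0.03 ± 0.10. MSG without aspartame gave the PPARalpha targets a median of 0.15, beside 0.004 over all genes, in a comparison that shares no array with the main one. There 3 targets were higher and none lower at an unadjusted p under 0.05, beside 565 higher and 622 lower of all 20422 genes.

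In fatty acid and triglyceride synthesis (22 genes), an unadjusted p under 0.05 was reached by 4 higher genes and 1 lower, with a median of 0.09 that ranged from -0.003 to 0.18 with 1 pool left out. Elovl5, an elongase of polyunsaturated fatty acids, was at 11.09, 11.44 and 11.54 against 11.72, 11.79 and 12.15 (difference 0.53 ± 0.12), and Scd1, the desaturase that makes monounsaturated fatty acids, at 13.34, 13.51 and 13.81 against 14.03, 13.89 and 14.17 (difference 0.48 ± 0.14). Neither passed (adjusted p = 0.276 and 0.37 in limma), and both sets of pools were apart. Around the lipid droplet (19 genes), 4 were higher and none lower. G0s2, the inhibitor of the lipase ATGL, was at 9.12, 9.55 and 9.34 against 9.96, 9.69 and 10.05, a difference of 0.56 ± 0.13 (adjusted p = 0.276 in limma). Cfd, adipsin, which is an adipocyte gene also read in these livers, was at 8.02, 9.12 and 9.35 against 9.60, 10.26 and 10.20. Its difference of 1.19 ± 0.28 (adjusted p = 0.276 in limma) stood beside a median of 0.10 over 7 adipocyte markers, of which 2, Cfd and Cidec, were higher at an unadjusted p under 0.05.

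No glucose or glycogen gene passed. Ppp1r3c, which targets protein phosphatase to glycogen, was at 9.24, 9.47 and 8.97 against 9.90, 10.00 and 9.70, a difference of 0.64 ± 0.15 (adjusted p = 0.276 in limma). G6pc, which releases glucose, differed by 0.31 ± 0.11, and Igfbp2, an insulin-like growth factor binding protein gene, by -0.25 ± 0.09. At an unadjusted p under 0.05, of 14 glycogen genes 3 were higher and none lower. Of 19 gluconeogenesis and insulin signalling genes 2 were higher and 1 lower, beside 3.35% higher and 5.06% lower of all genes.

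With all pools, genes that handle the additives themselves stayed close to 0. Glutamate and aspartate metabolism (18 genes), the urea cycle (7), phenylalanine and tyrosine breakdown (8) and one-carbon and methanol handling (11) held no gene at an unadjusted p under 0.05, and their medians lay between -0.04 and 0.04. Without ASP + TFA pool 3, the first held 2 lower and 1 higher gene, the urea cycle 2 lower and one-carbon handling 1 lower. These stood beside 8.13% lower and 6.84% higher of all genes, and the list medians lay between -0.10 and -0.03. Glul, glutamine synthetase, was at 12.47, 12.59 and 12.43 against 12.25, 12.31 and 12.40, a difference of -0.18 ± 0.11. Of 25 amino acid transporters, 3 were lower and 1 higher with all pools. Slc1a2, the glutamate transporter of the hepatocytes around the central vein, was at 10.30, 10.40 and 10.12 against 9.91, 9.93 and 9.91, a difference of -0.35 ± 0.10 (adjusted p = 0.378 in limma). Of 26 glutamate and taste receptors, 1 was lower, the metabotropic receptor gene Grm8 at -0.39 ± 0.09 with its pools at 5.54 to 6.13, and 1 was higher, the taste receptor subunit Tas1r3 at 0.22 ± 0.10. Neither passed.

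Genes of the unfolded protein response had the second lowest median, -0.22, with 22 of 23 below 0, 3 lower and none higher at an unadjusted p under 0.05. The median ranged from -0.28 to -0.09 with 1 pool left out. The list mean was 10.23, 10.07 and 10.04 in the ASP + TFA pools and 9.626, 10.04 and 9.955 in the ASP + MSG + TFA pools. Creld2, a chaperone of the endoplasmic reticulum, was at 10.32, 9.89 and 10.15 against 8.84, 9.82 and 9.59 (difference -0.70 ± 0.24), Chac1, which degrades glutathione, at 6.88, 6.62 and 6.61 against 6.43, 6.00 and 6.18 (-0.50 ± 0.14), and the transcription factor gene Xbp1 at 10.68, 10.50 and 10.42 against 10.22, 10.30 and 10.29 (-0.26 ± 0.09). All 3 had groups that did not overlap and none passed (adjusted p from 0.355 to 0.421 in limma). MSG without aspartame gave this list a median of -0.16. In the list of hepatocyte growth factor, Notch and liver transcription factors (20 genes), 6 were lower and 3 higher. The forkhead gene Foxa1 was at 8.80, 8.66 and 8.64 against 8.11, 8.29 and 8.41 (-0.43 ± 0.11), the hepatocyte factor Onecut1 at 8.92, 8.97 and 9.06 against 8.26, 8.28 and 8.84 (-0.52 ± 0.15), and the Notch target Hes1 at 7.50, 7.40 and 7.39 against 7.68, 7.85 and 7.69 (0.31 ± 0.08). None of them passed.

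Targets of the xenobiotic receptors CAR and PXR went both ways, with 4 lower and 2 higher of 19. Cyp2b10, the standard CAR target in mouse liver, was at 10.81, 10.03 and 9.19 against 8.52, 8.28 and 9.57, and Cyp2b9 of the same subfamily at 8.02, 9.45 and 9.72 against 9.77, 9.70 and 10.96. The groups overlapped for both, and the differences of -1.22 ± 0.45 and 1.08 ± 0.41 did not pass (adjusted p = 0.475 and 0.502 in limma).

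**Figure D4:**
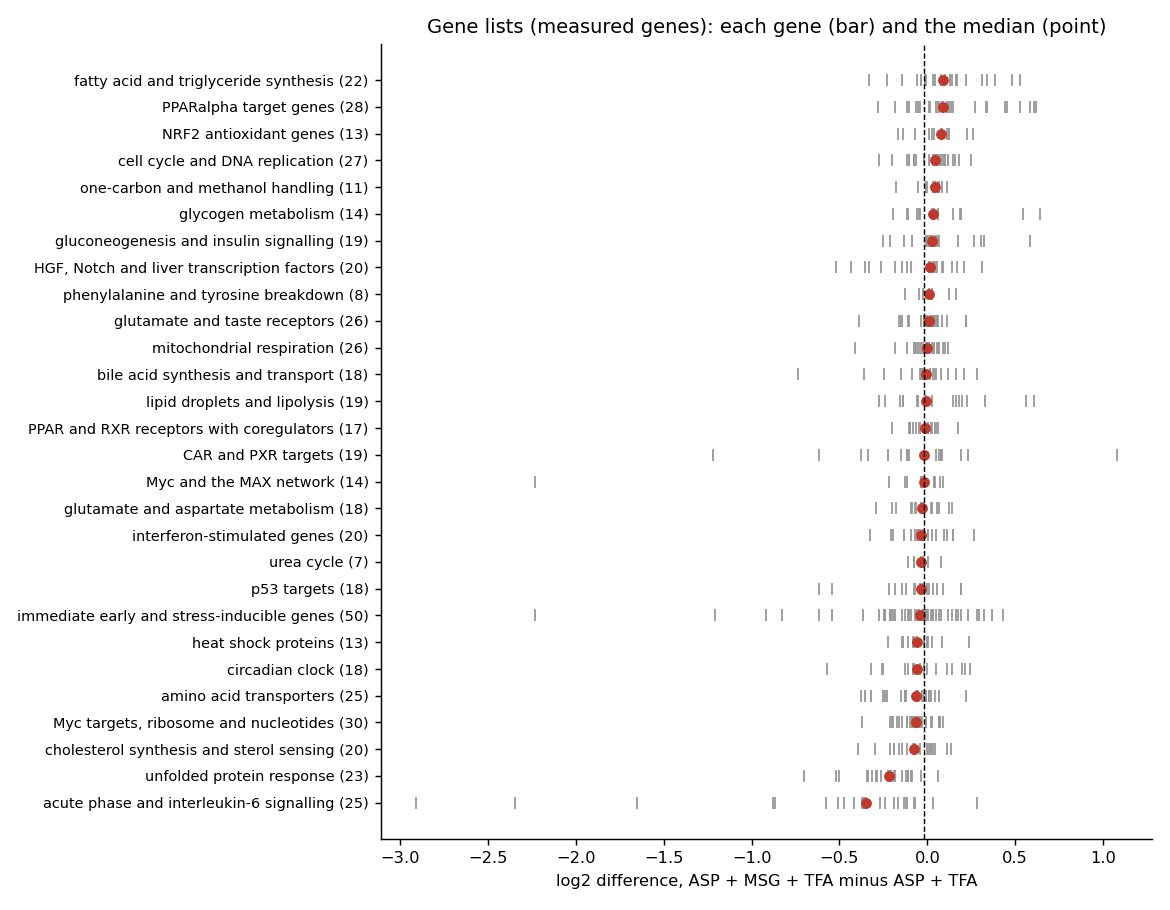
Log2 difference, ASP + MSG + TFA minus ASP + TFA (x axis), of each measured gene (grey bars) and the list median (red points) in 28 gene lists (y axis, number of measured genes in brackets). The dashed line is the median of all genes, -0.02, and the acute phase list, at -0.35, and the unfolded protein response, at -0.22, lie farthest from it.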

How the data were processed

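Liver RNA was measured on 12 arrays, 3 per diet. The authors processed the scans by GCRMA, followed by quantile normalization in Partek. The deposited linear intensities, from 14.75 to 68604, were transformed to log2 here before any test. Array medians lay between 6.91 and 6.96 on the log2 scale. Of 241576 probe sets, 212138 had 1 gene symbol in the platform annotation, 4672 had several and 24766 had none, and only the first were used. A gene is the mean of its probe sets (median 8, with 2290 genes read by 1).

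All contrasts were taken from a single fit to the 12 arrays (lmFit and eBayes of limma 3.58.1, R 4.3.3), with Benjamini-Hochberg adjustment over all 20422 genes and a threshold of 0.05, and for probe sets a 1.4-fold change too. Precision is limited by 3 arrays per diet, and p-values measure only how pools of a diet vary. Named genes were those that passed, the 12 genes per direction with the smallest p or largest change among those whose groups do not overlap, 2 to 4 genes of smallest p in every list, any immediate early gene, and up to 12 per direction of those that passed without the pool whose omission gave most calls. Ppara, Ppargc1a, Max, Mxd1, Mnt, Glul, Il6ra, Stat3 and other genes outside this rule are named for their role, and Gm8785, a gene model that the rule leaves unnamed, because only 5 genes passed; these were chosen after their values were seen. The 39 lists (651 measured entries) and the comparison itself were chosen with earlier results of these data known. Promoters came from a RefSeq table on GRCm38.p6. Alternatives were a further quantile normalization, median centring, brighter probe sets, the median of probe sets, array weights, a trend and robust variance, fewer arrays, a replicate block, marker covariates and the one-way analysis of variance of the methods. The code was tested on simulated data. Figures used Python 3.11.15 and matplotlib 3.10.9.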

Additional observations from a re-analysis of the deposited data

Results flagged for a closer look

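For 5 named genes the effect of MSG with aspartame differed from its effect without aspartame by the interaction test of limma with all pools. The differences between the effects were -2.03 for Myc and -0.76 for Gm8785 (adjusted p = 0.0151 for both), 2.26 for Ppih (adjusted p = 0.0151), -0.87 for Csnk2a1-rs2, a related sequence of a casein kinase 2 gene (adjusted p = 0.0222), and -0.70 for Zdhhc24, a gene of the palmitoyltransferase family (adjusted p = 0.048). Csnk2a1-rs2 and Ppih are each read by 1 probe set. For the main difference, the alternative with brighter probe sets gave no value for Csnk2a1-rs2, Ppih or Gm8785, since none of their probe sets was among the brighter ones. Csnk2a1-rs2 was at 5.21 to 5.34 in the TFA pools, 5.61 to 5.76 with MSG, 5.84 to 6.09 with aspartame and 5.42 to 5.61 with both. Zdhhc24 was at 6.52 to 6.71 in the TFA pools, 6.77 to 6.89 with MSG, 6.84 to 7.01 with aspartame and 6.42 to 6.51 with both. For Myc and Zdhhc24 the ASP + MSG + TFA pools were the lowest of the 12, and for Gm8785, Ppih and Csnk2a1-rs2 they lay nearer to the TFA pools than the ASP + TFA pools did. The interaction was run under 14 alternatives, which were each pool left out, the replicate block and the 3 acinar-rich pools left out. It was not run under the other normalizations, probe set choices, variance settings or marker covariates. Of these 14, the call was kept in 11 for Myc and Ppih, 8 for Gm8785, 5 for Csnk2a1-rs2 and 1 for Zdhhc24. With the replicate block, the adjusted p was 0.0533 for Gm8785, 0.0673 for Csnk2a1-rs2 and 0.101 for Zdhhc24.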

How the results depend on the processing

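Of 120 genes run under the alternatives, 111 kept their direction. The other 9 did not pass with all pools. With the median of the probe sets Hspa8 went to -0.045 and Il6ra to 0.0201, with brighter probe sets Max to 0.011, with array weights Egr1 to 0.11, Il6ra to 0.027 and Mnt to 0.081, with the muscle mean Mxd1 to -0.015, and without the 3 acinar-rich pools Jun to -0.033, Fos to 0.13 and Mnt to 0.0043. With 1 pool left out, Egr1 ranged from -0.198 to 0.0861, Max from -0.138 to 0.0195, Mxd1 from -0.0909 to 0.18, Mnt from -0.0918 to 0.0431 and Ppargc1a from -0.0482 to 0.118. The number of genes that passed (5) was 6 after a further quantile normalization, 5 after centring, 7 with a trend and robust variance and 5 with the muscle mean as covariate. It was 3 with the brighter probe sets, 1 with the median of the probe sets, 3 with only the 6 arrays and 3 with the acinar mean as covariate. It was 235 (141 lower, 94 higher) with array weights, 11 at an adjusted p under 0.1, 1 with the one-way analysis of variance and its contrast, and 88 (51 lower) by an unadjusted p under 0.05 across the diets plus 1.4-fold. It was 14 after dropping the 3 acinar-rich pools, a choice made after seeing the data. Leaving out 1 pool gave from 1 to 45. For probe sets it was 0 with the replicate block, with the 6 arrays and with any pool left out, and 6150 by that unadjusted p plus 1.4-fold. The causes were not tested.

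Same-numbered pools did not deviate together (correlations of -0.02, 0.03 and -0.17), beside -0.289 to 0.258 between pools of different number. Whether the numbers mark a shared batch cannot be told from these few correlations. With a replicate block 6 genes passed, and Gm8785 did not (adjusted p = 0.0508). Myc passed in all 23 alternatives, with adjusted p from 4.96e-05 to 0.0329.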
